A study of Mus musculus with 12 samples.

Results

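The 37 Hox genes described here are homeobox genes of the 4 Hox clusters, taken by name from the 37991 gene identifiers counted in 12 RNA-seq libraries of mouse embryonic fibroblasts. Each symbol matched a single identifier. The HoxA cluster (chromosome 6) gave 10 genes, HoxB (chromosome 11) gave 10, HoxC (chromosome 15) gave 9 and HoxD (chromosome 2) gave 8. Of the 37 genes, 34 passed the filter on low counts and were tested. Hoxb1, Hoxb13 and Hoxd12 did not pass it and are described by their counts.

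Hox genes encode transcription factors that give cells along the head-to-tail axis and along the limbs their position. Within a cluster the genes are numbered from the 3′ to the 5′ end, genes with the same number in different clusters are paralogues, and low-numbered genes act further towards the head than high-numbered ones. Polycomb proteins keep a Hox gene silent where it was never switched on, and Trithorax proteins keep it on where it was. Fibroblasts in culture keep much of the Hox pattern of the body site they came from, so a Hox profile is commonly read as a record of position.

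The study asked how gene expression differs between fibroblasts that lack Ing1, Gadd45a or both. ING1 is a chromatin protein that binds a histone mark found at active promoters, and GADD45A is a stress-induced protein linked to DNA repair and DNA demethylation. All cells were primary fibroblasts of male C57BL/6N embryos at E15.5, from interbred Ing1 and Gadd45a deficient mice, collected at passage 4 and 80% confluency. There were 4 groups of 3 libraries: wild type (WT), Ing1-/- (Ing1 KO), Gadd45a-/- (labelled Gadd45a KO) and Gadd45a-/-;Ing1-/- (labelled DKO). The labels do not say which regions of the embryo were used, or whether replicates came from separate embryos, so p-values measure the spread between libraries, which may be technical.

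Ing1 ranged from 49.7 to 54.5 CPM (counts scaled to the size of the library) in the 6 libraries labelled as having it and from 0.916 to 1.42 CPM in the 6 labelled as lacking it. Gadd45a was higher in the libraries labelled as lacking it, at 75.9 to 132 CPM against 16.7 to 21.3 CPM in the others. No source used here gives the deleted part of Gadd45a. A count outside that part does not check the label, so every direction given for these groups rests on the label. Gene counts per library ran from 31493168 to 42852059. The 10 fibroblast markers summed to between 58800 and 72000 CPM in every library. The sum does not describe each marker. Against the WT, 3 were called higher and 4 lower in Ing1 KO, where 23.5% of all genes were called. In the labelled DKO 0 were called higher and 2 lower, where 25.9% of all genes were called. The 19 macrophage markers summed to 2380 to 2970 CPM in the libraries labelled DKO and to 152 to 677 CPM in the others, and all 19 were called higher against each other group. Markers of endothelium (3.72 to 6.93 CPM) and epithelium (0.997 to 4.49 CPM) were low everywhere. Those of neurons and Schwann cells summed to 96.8 to 183 CPM, highest in the labelled DKO. Only 4 of these 6 neural markers passed the filter. Against the WT, 2 of them were higher and 2 lower on average in the labelled DKO, and 1 was called higher. Replicate 3 of Ing1 KO and replicate 3 of the labelled DKO stood apart from the other replicates of their groups in several Hox genes. Results that rest on them are given with and without them. Both libraries were picked out by these same Hox values. Leaving them out therefore narrows the spread, and the smaller p-values without them are no evidence beyond those from all libraries. In such bulk samples, fewer cells of a type that expresses a gene and less RNA per cell cannot be told apart.

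The promoters of 3 Hox genes are printed because these genes carry the results described further on: Hoxa5 and Hoxd8 differed from the WT in opposite directions in Ing1 KO, and Hoxb8 was higher in the labelled DKO. Each run is the 250 bases before the annotated start, 5′ to 3′ on the strand of the gene, from RefSeq on GRCm38.p6, another build than the mm9 build of the counts. Capitals mark matches on either strand to TATAAA (the TATA box), CCAAT (the CCAAT box), TGATTNAT (a site for Hox and Pbx proteins together) or AGGTCA (a nuclear receptor site, of the kind retinoic acid receptors bind).
Hoxa5 (minus strand, chr6:52204588-52204837): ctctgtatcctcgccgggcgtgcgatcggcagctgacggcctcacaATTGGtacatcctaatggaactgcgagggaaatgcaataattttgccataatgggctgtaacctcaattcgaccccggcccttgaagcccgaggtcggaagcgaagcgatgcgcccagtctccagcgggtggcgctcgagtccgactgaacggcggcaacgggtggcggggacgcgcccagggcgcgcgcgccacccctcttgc
Hoxd8 (plus strand, chr2:74704365-74704614): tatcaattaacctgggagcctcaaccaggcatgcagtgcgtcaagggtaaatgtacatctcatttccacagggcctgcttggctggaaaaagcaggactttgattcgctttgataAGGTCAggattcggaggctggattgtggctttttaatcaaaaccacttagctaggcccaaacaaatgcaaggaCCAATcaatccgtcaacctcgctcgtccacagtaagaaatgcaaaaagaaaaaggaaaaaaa
Hoxb8 (plus strand, chr11:96281655-96281904): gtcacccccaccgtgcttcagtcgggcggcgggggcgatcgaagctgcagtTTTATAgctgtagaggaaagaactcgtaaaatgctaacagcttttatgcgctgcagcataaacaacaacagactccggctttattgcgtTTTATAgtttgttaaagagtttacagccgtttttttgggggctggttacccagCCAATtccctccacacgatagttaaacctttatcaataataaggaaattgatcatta

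The windows differ in base composition. That of Hoxa5 holds 28 CpG pairs and is 63.6% G or C, while those of Hoxd8 and Hoxb8 hold 6 and 12 CpG pairs and are each 44.4% G or C. All 3 windows hold a CCAAT match, a motif found in 33.8% of 32851 mouse promoter windows of this length and in 13 of the 23 windows available for 21 of the Hox genes. AGGTCA, present in the Hoxd8 window, was found in 14% of all windows and 5 Hox windows. TATAAA, present in the Hoxb8 window on the reverse strand, was found in 12.4% and 3. TGATTNAT was found in 2.82% and 2. The Hox windows had a median of 13 CpG pairs, with a range of 2 to 35, against 6 in all windows, and a median of 59.2% G or C against 52.4%. A match is a description of these letters and no evidence of binding.

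WT fibroblasts expressed a broad Hox profile in which genes of the middle of the clusters dominated. Levels compared between genes are CPM per kilobase of annotated exon, and the 37 genes together reached 137 ± 2.7 CPM per kilobase in the WT (SD, n = 3). Hoxb9, a gene of thoracic identity, was highest at 26 CPM per kilobase, with a range of 23.8 to 27.8 over the 3 libraries. It was followed by Hoxc8 at 17.6, Hoxc6 at 14.7, Hoxd8 at 12.2, Hoxc10 at 9.87, Hoxa10 at 9.26 and Hoxb7 at 5.82 CPM per kilobase. These 7 genes did not overlap in range with their neighbours in the order. The order depends on the length used: per kilobase of the longest transcript, Hoxc6 reached 22.4 beside 22.5 for Hoxc8, and Hoxa10, at 11.8, passed Hoxc10, at 9.87. From Hoxa11 at 4.06 downwards most neighbours overlapped, so the order there is not resolved. Some genes share exon bases with other annotated genes, such as Hoxd3 (62.8%), Hoxb3 (52.9%) and Hoxa11 (35.0%). Their levels would be too low if reads over shared bases were set aside as ambiguous in counting.

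Levels in the WT differed between classes of paralogue number, which hold unequal numbers of genes. Paralogues 5 to 8 (11 genes) held 47.3% of the summed Hox level per kilobase and paralogue 9 (4 genes) held 24.4%. Paralogues 10 to 13 (12 genes) held 19.3% and paralogues 1 to 4 (10 genes) held 9.0%. Most of the 33.4 CPM per kilobase of paralogue 9 came from Hoxb9, at 26. By cluster the sum was 53.5 ± 2.4 CPM per kilobase for HoxC, 43.0 ± 2.5 for HoxB, 23.7 ± 1.3 for HoxA and 16.7 ± 2.4 for HoxD (SD, n = 3). Each cluster had its own leading gene: Hoxc8, Hoxb9, Hoxa10 and Hoxd8. Hoxd8 alone held 73.2% of the HoxD level, and Hoxb9 held 60.4% of the HoxB level. The genes of the far ends were low: Hoxa13, Hoxc12, Hoxc13 and Hoxd13, which pattern digits, hair and nails, and the genital region, lay between 0.183 and 0.263 CPM per kilobase. Against the longest transcript instead of all exons, the WT level of 12 genes moved by more than its SD.

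**Figure D1:**
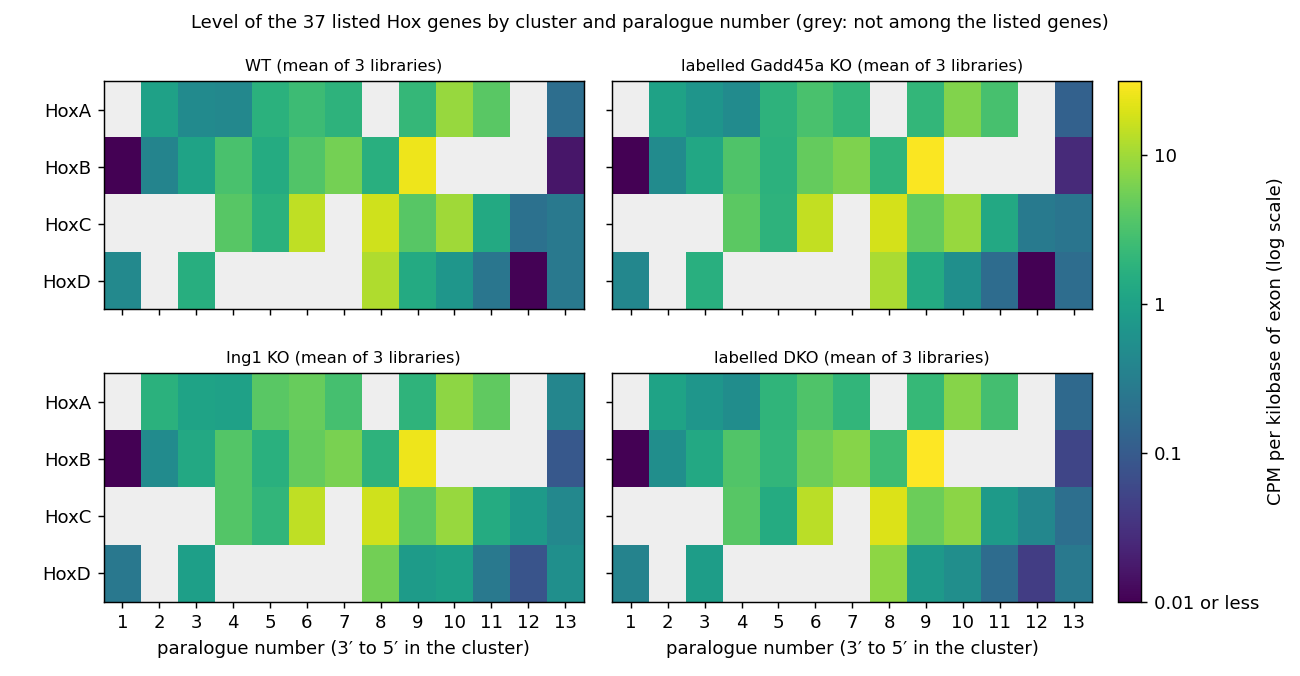
Mean level of each Hox gene in CPM per kilobase of exon (colour, log scale) in 3 libraries of each group, arranged by cluster (rows) and paralogue number (columns), with grey for positions outside the 37 genes. In every group the brightest cells are Hoxb9 and Hoxc8, and in Ing1 KO and the labelled DKO the Hoxd8 cell is darker than in the WT, where it stood at 12.2 CPM per kilobase.

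The 3 untested genes were at or near the limit of detection. Hoxb1, a hindbrain gene, had 2 counts in Ing1 KO replicate 2 and 0 in every other library, and a count of 0 allows a level of up to 0.0696 to 0.0948 CPM, depending on the library (3 counts, counting error only). Hoxb13, a gene of the tail and prostate, had 3, 1 and 0 counts in WT replicates 1 to 3 and 2, 2 and 3 in the labelled Gadd45a KO. It had 13, 7 and 4 counts in Ing1 KO and 1, 1 and 11 in the labelled DKO. Hoxd12, a limb gene, had 0, 3 and 0 counts in the WT, 0, 0 and 2 in the labelled Gadd45a KO, 7, 5 and 13 in Ing1 KO and 0, 3 and 9 in the labelled DKO. Their highest counts were in Ing1 KO or in the labelled DKO replicate 3, and neither gene was tested.

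The summed Hox level was similar in the 4 groups, while cluster shares were less so. It was 137 ± 2.7 CPM per kilobase in the WT, 143 ± 4.2 in the labelled Gadd45a KO, 139 ± 12 in Ing1 KO and 143 ± 5.7 in the labelled DKO (SD, n = 3 each). HoxD made up 13%, 13.7% and 9.99% of the Hox level in WT replicates 1 to 3 and 11%, 9.94% and 11.8% in the labelled Gadd45a KO. Its share was 7.04%, 6.45% and 7.27% in Ing1 KO and 7.44%, 8.34% and 7.56% in the labelled DKO, below every library of the other groups. HoxA held 24.8% and 23.6% in Ing1 KO replicates 1 and 2, above the 12.5% to 17.9% of all other libraries, among them Ing1 KO replicate 3 at 17.6%. HoxB held 41.3%, 39.8% and 36.2% in the labelled DKO against 29.8% to 32.3% in the WT. It held 34.9%, 34.5% and 36.2% in the labelled Gadd45a KO, also above the WT, and 31.1%, 30.4% and 35.9% in Ing1 KO. DKO replicate 3 was thus level with the highest library of the labelled Gadd45a KO. No test was run on these shares.

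Ing1 KO was compared with the WT to ask about the loss of Ing1 alone. Of the 34 genes tested, 6 rose and 2 fell. Of all 15098 genes tested, 23.5% were called in this comparison, 12.1% higher and 11.4% lower, so the share of Hox genes called was near that of all genes. A gene is called here when its edgeR adjusted p over all genes is under 0.05. The median log2 fold change was 0.20 over the Hox genes and 0 over all genes. The libraries of the groups did not overlap for 10 Hox genes that were higher in Ing1 KO, against 18.5% of all genes, and for 3 that were lower, against 18.8%. The genes that rose were Hoxa3, Hoxa4, Hoxa5, Hoxa6 and Hoxa7 of HoxA, and Hoxc12. The genes that fell were Hoxd1 and Hoxd8 of HoxD.

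Hoxa5 (ENSMUSG00000038253), which patterns the neck-to-thorax border and the lung, stood at 3.38, 2.54 and 3.88 CPM in WT replicates 1 to 3. In Ing1 KO it reached 8.79, 9.42 and 4.37 CPM. Replicates 1 and 2 were far above every WT library, and replicate 3 was only just above the highest. Its log2 fold change was 1.21 ± 0.26 (SE, edgeR adjusted p = 0.00746). Without Ing1 KO replicate 3 the log2 fold change was 1.48 ± 0.17 (edgeR adjusted p = 0.000126).

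Hoxa6 (ENSMUSG00000043219), a gene of thoracic identity, stood at 2.26, 1.55 and 2.8 CPM in the WT and at 5.14, 4.24 and 3.55 CPM in Ing1 KO, with no overlap. Its rise on the log2 scale was 0.97 ± 0.22 (SE, edgeR adjusted p = 0.00708). Hoxa5 and Hoxa6 kept their call under every alternative run. Neither shares exon bases with another annotated gene, whereas Hoxa3, Hoxa4 and Hoxa7 do.

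Hoxa7 (ENSMUSG00000038236), another thoracic gene, stood at 4.68, 4.84 and 6.41 CPM in the WT and at 9.8, 8.6 and 7.32 CPM in Ing1 KO, again with no overlap. The log2 fold change was 0.69 ± 0.17 (SE, edgeR adjusted p = 0.0104), and without WT replicate 2 it was 0.63 (edgeR adjusted p = 0.0514). The antisense gene Hoxaas3 shares 20.4% of the exon bases of Hoxa7 with it, and the kit does not mark strand. Reads over shared bases may have been set aside as ambiguous, and no source used here says how they were counted.

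Hoxa3 (ENSMUSG00000079560), which is needed for the thymus and parathyroid glands, stood at 3.08, 2.35 and 3.13 CPM in the WT and at 7.31, 8.86 and 3.17 CPM in Ing1 KO. Replicate 3 was level with the WT and the other replicates were far above it. The log2 fold change was 1.18 ± 0.31 (SE, edgeR adjusted p = 0.0191), and 1.51 ± 0.16 without Ing1 KO replicate 3 (edgeR adjusted p = 8.86e-05). The call was lost without WT replicate 2 (log2 fold change 1.05), Ing1 KO replicate 1 (1.08) or Ing1 KO replicate 2 (0.87), in a fit of these groups alone (1.17) and without the low-count filter (1.19). Other annotated genes share 27.1% of its exon bases.

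Hoxa4 (ENSMUSG00000000942), a gene of neck vertebra identity, stood at 0.653, 0.749 and 0.662 CPM in the WT and at 1.52, 2.53 and 0.72 CPM in Ing1 KO. Replicate 3 lay inside the WT range. The log2 fold change was 1.2 ± 0.38 (SE, edgeR adjusted p = 0.0377). The call was lost without WT replicate 1, 2 or 3 (log2 fold change 1.17, 1.27 and 1.18), without Ing1 KO replicate 1 (1.23) or 2 (0.69), and in a fit of these groups alone (1.2). Without Ing1 KO replicate 3 it was 1.56 ± 0.28 (edgeR adjusted p = 0.00232).

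Hoxa2, which patterns the hindbrain and the second pharyngeal arch, showed the same division of libraries and lay at the threshold. It stood at 1.61, 2.06 and 1.77 CPM in the WT and at 3.62, 3.81 and 1.85 CPM in Ing1 KO. Its log2 fold change was 0.77 ± 0.26 (SE, edgeR adjusted p = 0.0508), and 1.03 ± 0.21 without Ing1 KO replicate 3 (edgeR adjusted p = 0.00399). It was also called with size factors by relative log expression (edgeR adjusted p = 0.0492), without the filter (edgeR adjusted p = 0.041), with the replicate block (edgeR adjusted p = 0.0415) and by DESeq2 (adjusted p = 0.0369). Summed over Hoxa2 to Hoxa7, the level was 18.2 and 18.1 CPM per kilobase in Ing1 KO replicates 1 and 2 and 10.9 in replicate 3, against 6.83 to 9.43 in the WT. Replicate 3 thus kept a smaller excess for Hoxa6 and Hoxa7 and next to none for Hoxa2 to Hoxa4. The same library had the lowest level in its group of the cartilage markers, which summed to 94.2, 88.7 and 42.5 CPM in Ing1 KO replicates 1 to 3 and to 30.8 to 40.1 CPM in the WT. Skeletal muscle markers summed to 73.5, 66.9 and 36.2 CPM in Ing1 KO and to 31.3 to 38.7 CPM in the WT, with Pax7 at 0 in every library. They also reached 66.2 and 49.3 CPM in replicates 1 and 2 of the labelled DKO, where the sum over Hoxa2 to Hoxa7 was 9.85 and 11.5 CPM per kilobase. Only 2 of the 6 muscle markers passed the filter. Against the WT, 1 of these was higher and 1 lower on average, both in Ing1 KO and in the labelled DKO. Neither was called in Ing1 KO, and 1 was called lower in the labelled DKO. The part of the cartilage and muscle markers in the HoxA result was not tested.

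The rise ended at Hoxa9. Hoxa9 ranged from 10.1 to 12.9 CPM in the WT and from 9.06 to 11.8 CPM in Ing1 KO, with a log2 fold change that was not called. Hoxa10 (ENSMUSG00000000938), the most abundant HoxA gene, stood at 30.2, 29.7 and 30.9 CPM in the WT and at 28.8, 20.5 and 28.4 CPM in Ing1 KO. All Ing1 KO libraries lay below the WT, but the log2 fold change of -0.23 ± 0.17 was not called (SE, edgeR adjusted p = 0.389). Hoxa11, a gene of the forearm and uterus, had a log2 change of 0.11 ± 0.24 (SE, edgeR adjusted p = 0.795). The antisense gene Hoxa11os shares 35.0% of its exon bases. Hoxa13, a digit gene, stood at 0.572, 0.669 and 0.12 CPM in the WT and at 0.93, 0.674 and 1.42 CPM in Ing1 KO, and was not called (log2 fold change 1.12 ± 0.59, edgeR adjusted p = 0.2).

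**Figure D2:**
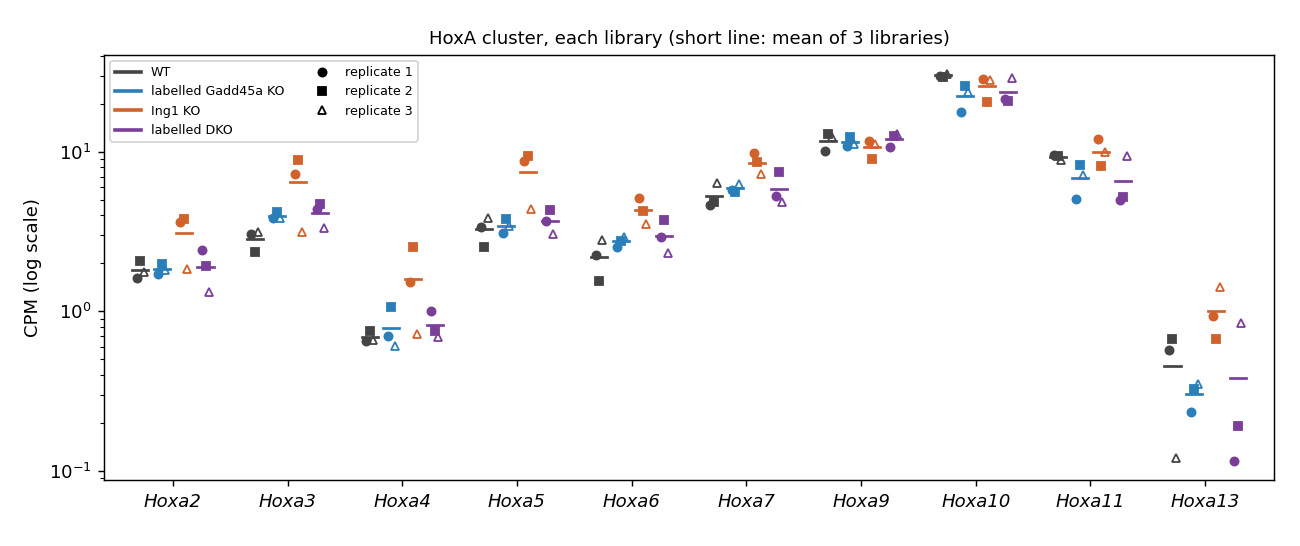
Level of each HoxA gene in CPM (vertical axis, log scale) in all 12 libraries, with groups in colour, replicates by symbol and the group mean as a short line. For Hoxa2 to Hoxa5 the Ing1 KO replicates 1 and 2 lie above all other libraries while replicate 3 lies near the WT, and for Hoxa9 the 4 groups overlap.

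In HoxD, Hoxd8 and Hoxd1 fell, and the call of Hoxd8 was the firmer one. Hoxd8 (ENSMUSG00000027102), the main HoxD gene of these cells, stood at 34, 36.3 and 30 CPM in the WT and at 15.8, 12.9 and 18.8 CPM in Ing1 KO. No Ing1 KO library came near the WT range. It fell 2.11-fold, or by 1.08 ± 0.14 on the log2 scale (SE, edgeR adjusted p = 0.000527), and it kept its call under every alternative run. Replicate 3, which stood apart for HoxA, was the highest of its group here but still far below the WT, and without it the log2 fold change was -1.22.

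Hoxd1 (ENSMUSG00000042448), known from pain-sensing neurons of the mouse, stood at 0.708, 1.1 and 0.692 CPM in the WT and at 0.465, 0.482 and 0.48 CPM in Ing1 KO. The groups did not overlap, and the log2 fold change was -0.81 ± 0.25 (SE, edgeR adjusted p = 0.0309). The call was lost without WT replicate 2 (-0.55), without Ing1 KO replicate 1 (-0.79), 2 (-0.82) or 3 (-0.81), in a fit of these groups alone (-0.81), without the low-count filter (-0.8) and with DESeq2 (-0.81). Hoxd3 and Hoxd9 were lower on average without being called. Hoxd3, which shapes the first neck vertebrae, had a log2 change of -0.72 ± 0.3 (SE, edgeR adjusted p = 0.112), and 62.8% of its exon bases lie in other annotated genes. Hoxd9, a gene of the upper limb segment, had -0.7 ± 0.25 (SE, edgeR adjusted p = 0.0591), and was called without WT replicate 3 (-0.9, edgeR adjusted p = 0.0241), Ing1 KO replicate 1 (-0.83, edgeR adjusted p = 0.048) or Ing1 KO replicate 3 (-0.87, edgeR adjusted p = 0.0386). Hoxd3 was called without WT replicate 3 (-0.98, edgeR adjusted p = 0.0249), and DESeq2 called both Hoxd3 (adjusted p = 0.0495) and Hoxd9 (adjusted p = 0.0488). Summed over Hoxd1 to Hoxd9, the level was 16.3, 17.1 and 13.1 CPM per kilobase in the WT and 7.76, 6.43 and 9.2 in Ing1 KO.

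Neither Hoxd10 nor Hoxd13 was lower on average. Hoxd10 stood at 1.31, 1.39 and 1.08 CPM in the WT and 2.4, 1.59 and 1.27 CPM in Ing1 KO, and Hoxd13 at 0.653, 1.12 and 0.15 CPM against 0.879, 1.25 and 1.99 CPM. No call was made for either (log2 fold change 0.47 ± 0.33 and 1.07 ± 0.62, edgeR adjusted p = 0.333 and 0.242). Paralogues 10 to 13 thus held 21.3%, 21.0% and 16.2% of the HoxD level in Ing1 KO, against 7.11%, 8.16% and 5.93% in the WT.

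Hoxc12 (ENSMUSG00000050328), a hair follicle gene at the 5′ end of HoxC, was the only HoxC gene called. It stood at 0.218, 0.294 and 0.12 CPM in the WT and at 1.11, 0.723 and 0.672 CPM in Ing1 KO, with no overlap, from 4 to 11 and 28 to 43 counts. Its log2 fold change was 1.95 ± 0.55 (SE, edgeR adjusted p = 0.0223). The call was lost without WT replicate 1 (log2 fold change 1.96) or 3 (1.69) and without Ing1 KO replicate 1 (1.69) or 2 (2.04). The other 8 HoxC genes had log2 fold changes that were not called, and the abundant Hoxc8 (ENSMUSG00000001657) stood at 48.3, 45 and 56.6 CPM in the WT and at 49.8, 48.9 and 52.6 CPM in Ing1 KO.

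No HoxB gene was called by edgeR in Ing1 KO against the WT, with all libraries and the low-count filter. Hoxb6 was called by DESeq2 (adjusted p = 0.0464), without the filter (edgeR adjusted p = 0.046) and without Ing1 KO replicate 2 (0.48, edgeR adjusted p = 0.0451). Hoxb2, Hoxb3, Hoxb4 and Hoxb6 were nevertheless higher in every Ing1 KO library than in every WT library. Of these, Hoxb6, a thoracic gene, differed most on the log2 scale, at 0.38 ± 0.14 (SE, edgeR adjusted p = 0.0617). Hoxb9 (ENSMUSG00000020875) stood at 61.2, 67.9 and 71.5 CPM in the WT and at 58.7, 50.8 and 86.6 CPM in Ing1 KO, where replicate 3 was above and the others were below every WT library. Without replicate 3 it was called lower (log2 fold change -0.29 ± 0.08, edgeR adjusted p = 0.0178).

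The count of Hox genes called in Ing1 KO rested in part on single libraries and on the fit. It was 4 without WT replicate 2, 5 without Ing1 KO replicate 1 or replicate 2, and 5 when these groups were fitted alone. The median SD between replicates of log2 CPM was 0.24 for the Hox genes in Ing1 KO and 0.15 in the WT, against 0.09 for all genes in both. It was 0.12 in the labelled Gadd45a KO and 0.23 in the labelled DKO, against 0.08 for all genes in both. Hox genes thus had the higher median, but they were not matched with all genes for level. The part of counting error in this difference was not tested.

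The libraries labelled Gadd45a KO were compared with the same WT libraries. None of the 34 Hox genes was called by edgeR, against 0.00662% of all genes (0.00662% higher and 0% lower), and DESeq2 called none either. At an unadjusted p under 0.05 there were 2, Hoxa10 and Hoxb6. The median log2 fold change was 0.08 over the Hox genes and 0 over all genes. Libraries did not overlap for 7 Hox genes that were higher, against 7.71% of all genes, and for 2 that were lower, against 6.97%.

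The 7 non-overlapping genes on the higher side were Hoxa3 and the HoxB genes Hoxb2, Hoxb3, Hoxb4, Hoxb5, Hoxb8 and Hoxb9. Hoxb9 stood at 76.1, 74.9 and 81.7 CPM, against 61.2, 67.9 and 71.5 CPM in the WT, a log2 change of 0.21 ± 0.16 (SE, edgeR adjusted p = 0.74). Hoxa10, on the lower side, stood at 17.8, 26 and 23.8 CPM against 30.2, 29.7 and 30.9 CPM in the WT. The log2 fold change was -0.43 ± 0.18 (SE, edgeR adjusted p = 0.542). Replicate 1 was the lowest of the 12 libraries for Hoxa10, and for Hoxd10 it had 0.417 CPM where all others had 0.885 CPM or more. Hoxd8, the gene that fell most clearly in Ing1 KO, stood at 33, 26.6 and 33.6 CPM here, with a log2 change of -0.11 ± 0.13 (SE, edgeR adjusted p = 0.856).

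The libraries labelled DKO were compared with the WT to ask about the loss of both genes. Of 34 Hox genes 3 rose and 2 fell, where 25.9% of all genes were called, 15.6% higher and 10.3% lower. The median log2 fold change was 0.05 over the Hox genes and 0.01 over all genes. Libraries did not overlap for 6 Hox genes that were higher, against 22.8% of all genes, and for 5 that were lower, against 18.5%. The genes that rose were Hoxb6, Hoxb7 and Hoxb8, which are neighbours in HoxB and act in the thorax, and those that fell were Hoxd8 and Hoxd9.

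Hoxb8 (ENSMUSG00000056648), whose loss makes mice groom to excess, stood at 4.06, 4.25 and 4.48 CPM in the WT and at 6.36, 8.28 and 6.05 CPM in the labelled DKO. The groups were well separated, and replicate 2 was the highest of all 12 libraries. The rise on the log2 scale was 0.69 ± 0.13 (SE, edgeR adjusted p = 0.00229), and the gene kept its call under every alternative run. In the labelled Gadd45a KO it stood at 5.52, 4.67 and 5.24 CPM and in Ing1 KO at 4.83, 4.41 and 5.47 CPM, so the labelled DKO lay above every other library.

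Hoxb6 (ENSMUSG00000000690) stood at 6.89, 7.62 and 6.71 CPM in the WT and at 9.58, 12.1 and 9.57 CPM in the labelled DKO. Its log2 fold change was 0.56 ± 0.14 (SE, edgeR adjusted p = 0.00975), and 0.43 without DKO replicate 2 (edgeR adjusted p = 0.0506). Hoxb7 (ENSMUSG00000038721) stood at 7.98, 9.68 and 9.29 CPM in the WT and at 11.2, 12 and 10.2 CPM in the labelled DKO, a rise of 0.31 ± 0.1 on the log2 scale (SE, edgeR adjusted p = 0.0318). Its call was lost without WT replicate 1 (0.23) or 3 (0.34) and without DKO replicate 1 (0.3) or 2 (0.25). Hoxb9 stood at 89.1, 80.9 and 87.2 CPM in the labelled DKO, above all WT libraries, and was not called (log2 fold change 0.36 ± 0.16, edgeR adjusted p = 0.142) except in a fit of these groups alone (0.35, edgeR adjusted p = 0.0014). In the labelled Gadd45a KO, Hoxb6 stood at 10.5, 7.47 and 9.39 CPM and Hoxb7 at 11.1, 9.66 and 10.1 CPM. In Ing1 KO, Hoxb6 stood at 9.77, 7.88 and 10 CPM and Hoxb7 at 9.69, 8.74 and 10.1 CPM, so for both genes the single knockouts reached into the range of the labelled DKO or close to it. Macrophage markers are high in all 3 of these DKO libraries, and their part in the HoxB result was not tested.

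Hoxd8 fell in the labelled DKO too, but by less. It stood at 20.2, 24.4 and 22.3 CPM, below every WT library and above every Ing1 KO library. Against the WT its log2 fold change was -0.59 ± 0.14 (SE, edgeR adjusted p = 0.00851), and it kept its call under every alternative run. Hoxd9 (ENSMUSG00000043342) stood at 3.19, 3.53 and 1.99 CPM in the WT, at 2.76, 3.03 and 3.08 CPM in the labelled Gadd45a KO, at 2.12, 1.08 and 2.18 CPM in Ing1 KO and at 1.52, 1.83 and 1.62 CPM in the labelled DKO. Its log2 fold change in the labelled DKO was -0.81 ± 0.26 against the WT (SE, edgeR adjusted p = 0.032). That call was lost without WT replicate 1 (-0.74) or 2 (-0.65) and without DKO replicate 1 (-0.76), 2 (-0.89) or 3 (-0.8). Hoxd3 was lower on average in the labelled DKO (log2 fold change -0.83 ± 0.31, edgeR adjusted p = 0.0742) and was called by DESeq2 (adjusted p = 0.0186) and without WT replicate 3 (-1.08, edgeR adjusted p = 0.0133).

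**Figure D3:**
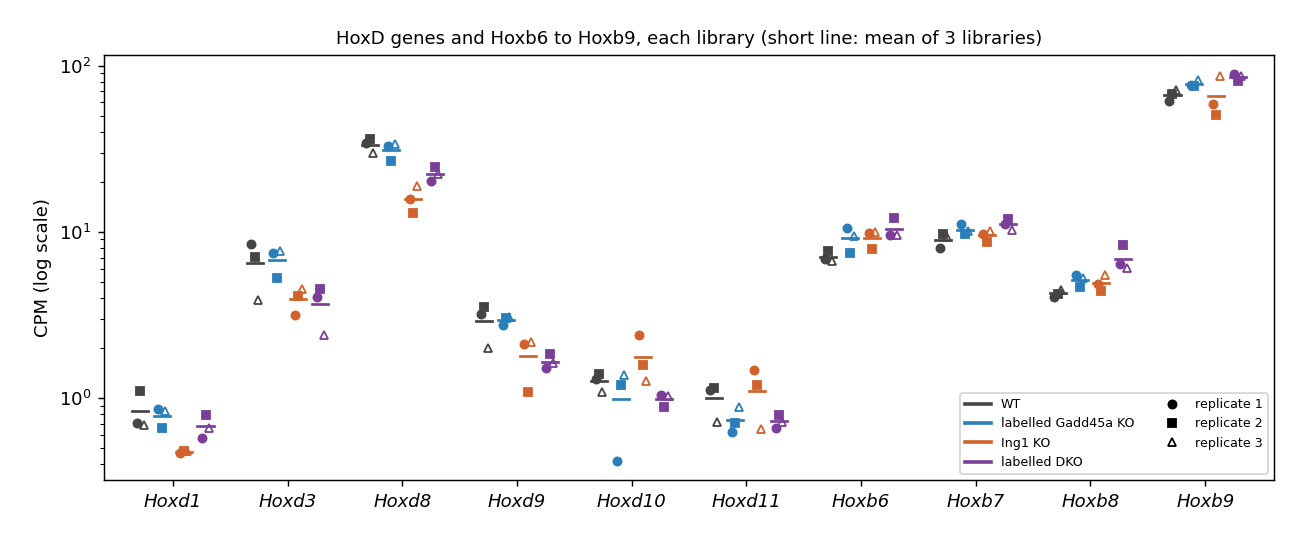
Level of HoxD genes and of Hoxb6 to Hoxb9 in CPM (vertical axis, log scale) in all 12 libraries, with groups in colour, replicates by symbol and the group mean as a short line. For Hoxd8 the 3 labelled DKO libraries, at 20.2 to 24.4 CPM, lie between the Ing1 KO libraries and the WT, and for Hoxb8 they lie above all others.

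Of the HoxA genes that rose in Ing1 KO, Hoxa4 to Hoxa7 overlapped with the WT in the labelled DKO and Hoxa3 did not. Hoxa3 stood at 4.37, 4.71 and 3.32 CPM, above every WT library, and was called in a fit of these groups alone (0.52, edgeR adjusted p = 0.0381). Hoxa5 stood at 3.68, 4.36 and 3.08 CPM. Hoxa6 stood at 2.91, 3.73 and 2.31 CPM, Hoxa7 at 5.29, 7.49 and 4.83 CPM and Hoxa4 at 1.01, 0.758 and 0.69 CPM. With all 12 libraries in the fit none was called against the WT, with log2 fold changes of 0.53 ± 0.32 for Hoxa3, 0.25 ± 0.42 for Hoxa4, 0.18 ± 0.27 for Hoxa5, 0.44 ± 0.23 for Hoxa6 and 0.14 ± 0.17 for Hoxa7. Nor was Hoxc12, at 0.144, 0.316 and 0.822 CPM (log2 fold change 1.02 ± 0.61, edgeR adjusted p = 0.247). Hoxa10 stood at 21.6, 21 and 29.2 CPM in the labelled DKO, below every WT library as in the single knockouts, and was not called.

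In a direct comparison of the labelled DKO with Ing1 KO, 2 Hox genes were higher and 3 were lower in the DKO, where 24.8% of all genes were called, 14.9% higher and 9.88% lower. The median log2 fold change was -0.11 over the Hox genes and 0.01 over all genes. Libraries did not overlap for 5 Hox genes on the higher side, against 22.6% of all genes, and for 3 on the lower side, against 16.5%. Hoxa5 was lower in the labelled DKO (log2 fold change -1.02 ± 0.26, edgeR adjusted p = 0.0149), as were Hoxa7 (-0.55 ± 0.17, edgeR adjusted p = 0.0295) and Hoxc5 (-0.49 ± 0.13, edgeR adjusted p = 0.0149). Hoxb8 (0.49 ± 0.13, edgeR adjusted p = 0.0159) and Hoxd8 (0.49 ± 0.14, edgeR adjusted p = 0.0247) were higher.

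These calls rested on single libraries more than those against the WT. Without Ing1 KO replicate 2 none of the 34 genes was called by edgeR, and the log2 fold changes were -0.83 for Hoxa5, -0.55 for Hoxa7, -0.38 for Hoxc5, 0.42 for Hoxb8 and 0.36 for Hoxd8. Without Ing1 KO replicate 1 there were 3 calls, without Hoxa7 (-0.44) and Hoxd8 (0.49). Without Ing1 KO replicate 3 there were 12, which included Hoxb9 (0.65 ± 0.08, edgeR adjusted p = 0.00013) and all 6 genes from Hoxa2 to Hoxa7, with log2 fold changes of -0.97 ± 0.16 for Hoxa3 and -1.3 ± 0.17 for Hoxa5 (SE, edgeR adjusted p = 0.00105 and 0.000223). Without DKO replicate 1 there were 4, and Hoxa7 (-0.48) and Hoxc5 (-0.42) lost the call. Without DKO replicate 2 there were 3 calls, with Hoxb8 (0.34) and Hoxd8 (0.42) lost, and without DKO replicate 3 there were 8, with Hoxa5 (-0.91), Hoxa7 (-0.43) and Hoxd8 (0.49) lost. DESeq2 called 8 genes and a fit of these groups alone called 2.

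The comparison of the labelled DKO with the labelled Gadd45a KO shares no library with that of Ing1 KO and WT. Both thus ask about the loss of Ing1 in separate libraries. They come from 1 fit with a shared estimate of spread, so they are not fully independent tests. Macrophage markers summed to 2380 to 2970 CPM in the labelled DKO and 152 to 593 CPM in the labelled Gadd45a KO. Their part in the results that follow was not tested. In the labelled DKO against the labelled Gadd45a KO, 1 Hox gene was higher and 2 were lower. Of all genes 26.4% were called here, 15.8% higher and 10.6% lower. The median log2 fold change was 0.05 over the Hox genes and 0 over all genes. Libraries did not overlap for 1 Hox gene on the higher side, against 24.6% of all genes, and for 4 on the lower side, against 21.1%. Hoxd8 was lower again (log2 fold change -0.48 ± 0.14, edgeR adjusted p = 0.0226), as was Hoxd9 (-0.84 ± 0.25, edgeR adjusted p = 0.0271). Hoxd3 (-0.9 ± 0.31, edgeR adjusted p = 0.0528) and Hoxc5 (-0.35 ± 0.13, edgeR adjusted p = 0.0604) were lower without overlap and without a call. Hoxd3 was called by DESeq2 (adjusted p = 0.00946), in a fit of these groups alone (edgeR adjusted p = 0.0366) and without Gadd45a KO replicate 2 (-1.07, edgeR adjusted p = 0.0411). Hoxb8 was higher (0.42 ± 0.13, edgeR adjusted p = 0.0304). No HoxA gene came near a call, and Hoxa5 had a log2 change of 0.1 ± 0.27 (SE, edgeR adjusted p = 0.826).

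The 3 calls depended on the libraries kept. Without replicate 3 of the labelled Gadd45a KO there was none by edgeR (-0.42 for Hoxd8, -0.8 for Hoxd9 and 0.43 for Hoxb8). Without DKO replicate 1 there was 1. Hoxd8 also lost its call without Gadd45a KO replicate 1 (-0.44) and without DKO replicate 1 (-0.42) or 3 (-0.49). Hoxd9 lost it without Gadd45a KO replicate 2 (-0.83) and without DKO replicate 1 (-0.78) or 3 (-0.82). Hoxb8 lost it without Gadd45a KO replicate 2 (0.34) and without DKO replicate 2 (0.27).

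**Figure D4:**
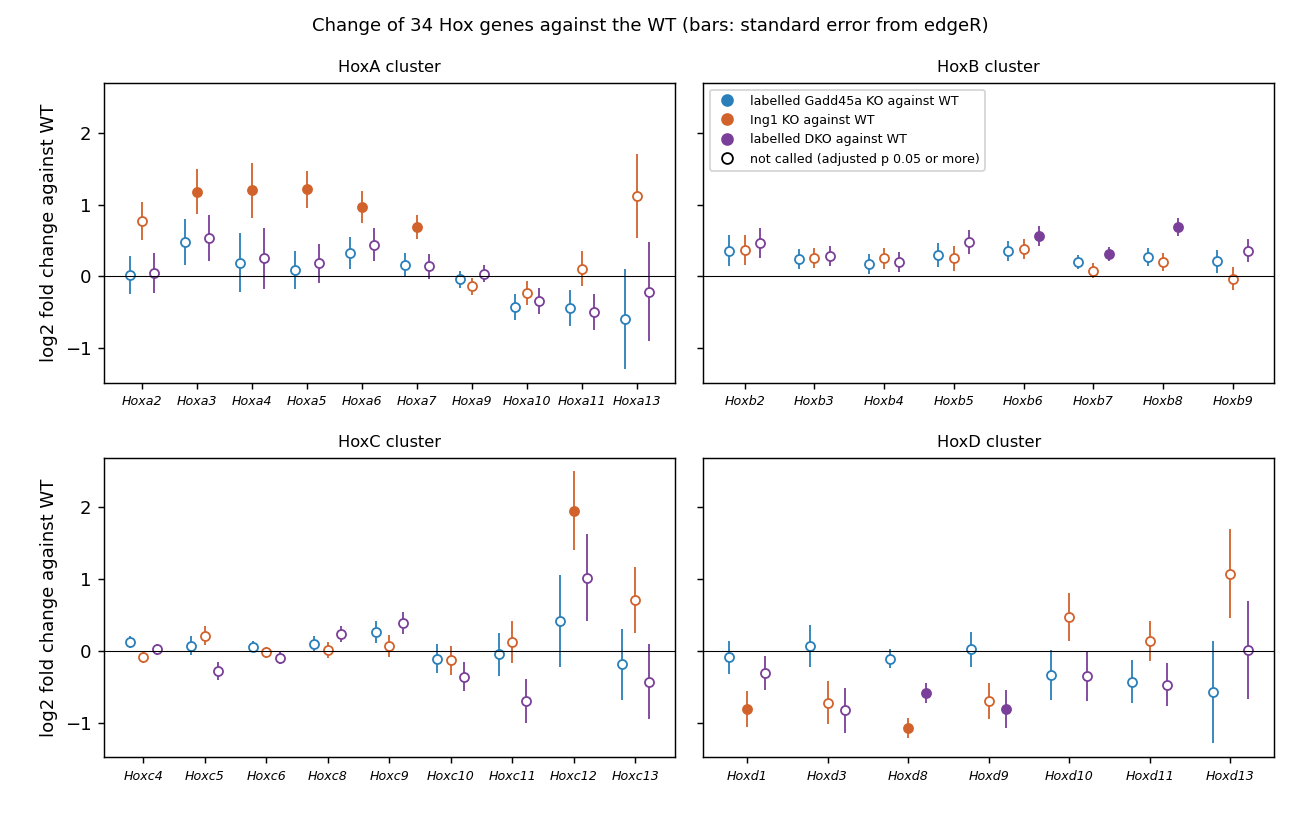
Log2 fold change against the WT of the 34 Hox genes tested, by cluster, for the labelled Gadd45a KO, Ing1 KO and the labelled DKO, with bars for the standard error and filled points for genes with an edgeR adjusted p under 0.05. The 3 comparisons share the WT libraries. Filled points are Hoxa3 to Hoxa7, Hoxc12, Hoxd1 and Hoxd8 for Ing1 KO, and Hoxb6 to Hoxb8, Hoxd8 and Hoxd9 for the labelled DKO.

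Whether the change on Ing1 loss differed with the Gadd45a label was tested by the interaction, which is the log2 fold change of the labelled DKO against the labelled Gadd45a KO less that of Ing1 KO against the WT. Of 34 Hox genes 1 was called, lower, where 17.8% of all genes were called, 10.4% higher and 7.40% lower. This gene was Hoxc5 (ENSMUSG00000022485), a gene of the neck and shoulder level. It stood at 5.45, 5.54 and 5.11 CPM in the WT, at 6.46, 5.17 and 5.29 CPM in the labelled Gadd45a KO, at 6.25, 7.08 and 5.23 CPM in Ing1 KO and at 4, 4.52 and 4.69 CPM in the labelled DKO, where every library was below all others. The interaction was -0.56 ± 0.18 (SE, edgeR adjusted p = 0.0494). The call held without Gadd45a KO replicate 2 (-0.63) or Ing1 KO replicate 3 (-0.67) and was lost without each other library in turn, at values of -0.61 to -0.45. The median interaction was -0.18 over the Hox genes and 0.01 over all genes.

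For Hoxa3 to Hoxa7 the interaction was negative, between -1.15 and -0.71, and none was called (edgeR adjusted p = 0.0976, 0.171, 0.063, 0.0709 and 0.0565 for Hoxa3, Hoxa4, Hoxa5, Hoxa6 and Hoxa7). DESeq2 called Hoxa3, Hoxa5, Hoxa7, Hoxc5 and Hoxd8. For Hoxd8 the interaction was 0.6 ± 0.19 (SE, edgeR adjusted p = 0.0532). Without Ing1 KO replicate 3 the interaction was called for 9 Hox genes, among them Hoxa3 (-1.45 ± 0.22, edgeR adjusted p = 0.00161), Hoxa5 (-1.39 ± 0.24, edgeR adjusted p = 0.00285) and Hoxd8 (0.74 ± 0.17, edgeR adjusted p = 0.0156). Without DKO replicate 3 it was called for Hoxc11 (-1.33), Hoxc12 (-2.28) and Hoxc13 (-2.13).

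Several of the most 5′ genes, which pattern the hindlimb, the digits and the tail end, divided the labelled DKO libraries. Hoxc11 stood at 1.09 and 1.14 CPM in DKO replicates 1 and 2 and at 2.68 CPM in replicate 3, against 2.44 to 3.08 CPM in the WT. Hoxc13 stood at 0.23, 0.19 and 0.981 CPM and Hoxa13 at 0.115, 0.19 and 0.849 CPM in DKO replicates 1 to 3. Hoxa11 stood at 5.01, 5.25 and 9.5 CPM and Hoxd13 at 0.259, 0.348 and 1.33 CPM. In each of these genes replicates 1 and 2 lay close together and replicate 3 was well above them. Hoxd11, a limb gene, did not divide them, at 0.662, 0.79 and 0.716 CPM.

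Summed over the 9 genes of groups 11 to 13, the level was 3.28, 3.7 and 7.95 CPM per kilobase in DKO replicates 1 to 3. It was 7.1, 6.89 and 5.69 in the WT, 4.03, 6.07 and 5.76 in the labelled Gadd45a KO and 9.49, 7.38 and 8.51 in Ing1 KO. The sum of the skeletal muscle markers divided the labelled DKO the other way, at 66.2, 49.3 and 31.8 CPM in replicates 1 to 3. Only 2 of these 6 markers passed the filter, and 1 of them was called lower in the labelled DKO against the WT. The part of these markers in the posterior result was not tested. With all libraries none of these posterior Hox genes was called in the labelled DKO against the WT. Without DKO replicate 3 the count of Hox genes called in that comparison was 9 in place of 5, and Hoxa11 (log2 fold change -0.86 ± 0.2, edgeR adjusted p = 0.009), Hoxc11 (-1.27 ± 0.25, edgeR adjusted p = 0.00395) and Hoxc13 (-1.62 ± 0.44, edgeR adjusted p = 0.0196) were called lower, as was Hoxc10, while Hoxb5 was called higher. DKO replicate 3 was picked out by these same genes, so the p-values without it are no separate evidence. The count was 3 without WT replicate 1 or DKO replicate 1, and 2 without DKO replicate 2.

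Limb identity genes were read beside these posterior genes. Tbx4, a factor of the hindlimb, stood at 1.9, 1.01 and 4.72 CPM in DKO replicates 1 to 3, at 2.86, 3 and 4.24 CPM in the WT, at 1.82, 2.25 and 0.928 CPM in the labelled Gadd45a KO and at 7.75, 7.03 and 4.99 CPM in Ing1 KO. Pitx1, which lies above Tbx4 in hindlimb development, stood at 1.44, 1.55 and 3 CPM in the labelled DKO, at 1.66, 1.23 and 1.99 CPM in the WT and at 7.31, 6.21 and 6.02 CPM in Ing1 KO. In both genes DKO replicate 3 was the highest of its group, and Ing1 KO lay above all other libraries. Tbx5, the matching factor of the forelimb, lay between 5.25 and 9.42 CPM in all 12 libraries and did not divide the labelled DKO in this way (7.71, 9.42 and 7.51 CPM). The part of Tbx4 and Pitx1 levels in the posterior Hox result was not tested.

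**Figure D5:**
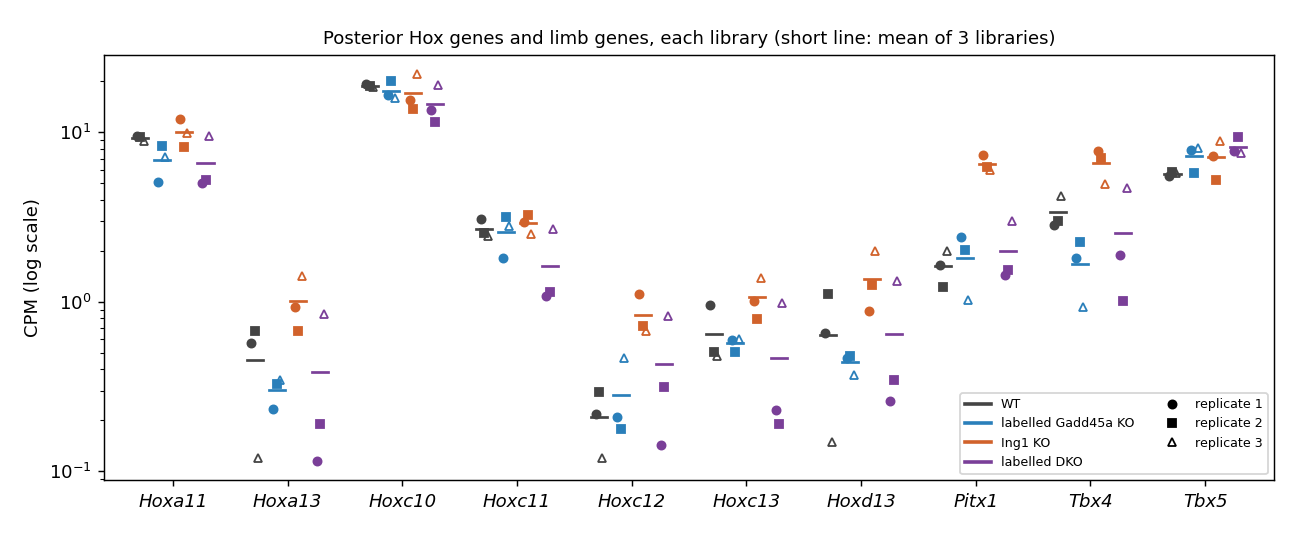
Level of posterior Hox genes and of 3 limb factor genes in CPM (vertical axis, log scale) in all 12 libraries, with groups in colour, replicates by symbol and the group mean as a short line. In Hoxa11, Hoxa13, Hoxc11, Hoxc13, Hoxd13, Pitx1 and Tbx4 the labelled DKO replicate 3 lies above replicates 1 and 2, and in Tbx5 it does not.

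Lists of genes that work with Hox genes or control them were counted in the same way. Over all genes, 12.1% were called higher and 11.4% lower in Ing1 KO against the WT, and 15.6% and 10.3% in the labelled DKO, and each count is to be read against these shares. Of the 9 cofactor genes of the Pbx, Meis and Pknox families, which bind DNA together with Hox proteins, 0 rose and 2 fell in Ing1 KO against the WT (Meis1, -0.23), and 1 rose and 2 fell in the labelled DKO (Pbx2, 0.22, log2 fold changes). Of 13 genes of the Trithorax and MLL machinery, 6 rose and 0 fell in Ing1 KO and 3 rose and 0 fell in the labelled DKO, among them Dot1l, an H3K79 methyltransferase (0.36 and 0.24). The median log2 fold change of that list was 0.18 and 0.09, against 0 and 0.01 over all genes. Of 30 Polycomb genes and H3K27 demethylases, 3 rose and 5 fell in Ing1 KO and 8 rose and 4 fell in the labelled DKO, and the share called in Ing1 KO was near the 23.5% of all genes. Named members were Phc2 (0.39) and Rnf2 (-0.23) in Ing1 KO, Ezh2 (0.33) and Cbx6 (-0.35) in the labelled DKO, and the demethylase gene Kdm6b in both (0.26 and 0.3). Of 15 tested genes of the Cdx, retinoic acid and Gdf11 pathways, which switch Hox genes on, 4 rose and 1 fell in Ing1 KO and 3 rose and 3 fell in the labelled DKO, with the retinoic acid receptor gene Rara higher in both (0.42 each). Cdx2 and Cdx4 had no counts in any library.

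Of 11 tested RNAs transcribed inside the clusters, 1 rose and 1 fell in Ing1 KO and 0 rose and 2 fell in the labelled DKO. Hotairm1, from the 3′ end of HoxA, stood at 1.23, 1.28 and 1.53 CPM in the WT and at 2.09, 2.43 and 1.92 CPM in Ing1 KO (log2 fold change 0.67 ± 0.19, edgeR adjusted p = 0.0208). Its call was lost without WT replicate 1 (0.61) or 2 (0.64) or Ing1 KO replicate 2 (0.58). Hotair, from the 5′ part of HoxC, stood at 0.626, 0.909 and 0.361 CPM in the WT and at 0.23, 0.19 and 0.292 CPM in the labelled DKO (-1.4 ± 0.42, edgeR adjusted p = 0.0261), and here DKO replicate 3 did not stand far apart. Its call was lost without WT replicate 1 (-1.41) or 2 (-1.04) or DKO replicate 1 (-1.38) or 2 (-1.28). Of 8 tested genes that flank the clusters, 0 rose and 2 fell in Ing1 KO and 1 rose and 1 fell in the labelled DKO.

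Other genes of positional identity were counted last, against the same shares of all genes: 12.1% higher and 11.4% lower in Ing1 KO, and 15.6% and 10.3% in the labelled DKO. Of 18 tested limb and axial genes 7 rose and 1 fell in Ing1 KO, with a median log2 fold change of 0.53, and 2 rose and 2 fell in the labelled DKO, with a median of 0.14. Foxc2, a gene of the axial mesoderm, rose (0.51) and Tbx15, a trunk and limb gene, fell in Ing1 KO and in the labelled DKO (-0.42 and -0.35). A last list was drawn up for the front of the head, where Hox genes are silent. Its genes are not confined to the head, so its counts are no reading of head identity. Of 7 tested genes of this head list, 3 rose in Ing1 KO and 0 fell, among them Barx1 (2.85) and Dlx2 (1.04, log2 fold changes). Barx1 stood at 2.02, 1.81 and 0.672 CPM in Ing1 KO against 0.16 to 0.245 CPM in the WT, so here too replicate 3 was the lowest of its group. In the labelled DKO 2 genes of the head list rose and 1 fell. None of these lists had a call in the labelled Gadd45a KO against the WT by edgeR.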

How the data were processed

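The 12 RNA-seq libraries were prepared from 280 ng of RNA with 12 PCR cycles and read for 51 cycles as single reads, per the labels' protocols. The authors deposited raw counts per Ensembl gene, 1 table per library, without normalization. Per the submitters' processing notes the tools were FastQC, TopHat2 2.0.9, Bowtie2 2.1.0, HTSeq 0.5.4 and DESeq, with mm9. The kit does not mark strand, and no source used here gives the strand option used in counting. The 5 summary lines of each table were left out of library sizes. Reads assigned to no gene made up 23.89% to 24.91% of each table.

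The 34 Hox genes and all others were tested together in edgeR 4.0.16 (R 4.3.3): filterByExpr kept 15098 of 37991 genes, TMM scaled the libraries, and a robust quasi-likelihood fit used all 12 libraries with 8 residual degrees of freedom. A gene was called at a Benjamini-Hochberg adjusted p under 0.05 over all genes. Fold changes, SEs and p-values in the text come from this test unless another tool is named, and the SE is that of the fitted log2 fold change. The procedure was checked on simulated data with the same spread for all genes and no outlying library. That check does not cover genes with a larger spread or groups with a library that stands apart. CPM used TMM-scaled library sizes. Exon lengths and overlaps came from GENCODE M21 on GRCm38, another build than that of the counts, and promoters from RefSeq. Intervals and limits cover counting error only.

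Alternatives were size factors by relative log expression, no filter, DESeq2 1.42.0, the compared groups alone, a replicate block and leaving out each library. Repeats of these for listed genes were added after seeing the data.

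The Hox genes and the 8 pathway and 7 cell type lists were chosen with earlier results of these data known. Values by library are given for each Hox gene called in at least 1 comparison and for the most abundant of each cluster, but not in every group. Up to 3 called genes per list and comparison were eligible to be named. Of these, the text names mainly those that kept their call under every alternative, a choice made after the values were seen. Hoxa2, Hoxa11, Hoxa13, Hoxb13, Hoxc11, Hoxc13, Hoxd10, Hoxd11, Hoxd12 and Hoxd13 are also given by library, and were chosen after their values were seen. Some eligible genes are not reported here.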

Additional observations from a re-analysis of the deposited data

Results flagged for a closer look

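The change on Ing1 loss differed with the Gadd45a label for 1 Hox gene and for the 11 genes named here from the lists read beside them, by the edgeR interaction test. Each value is the log2 fold change of the labelled DKO against the labelled Gadd45a KO less that of Ing1 KO against the WT. For Hoxc5 it was -0.56 (edgeR adjusted p = 0.0494), the highest adjusted p of these 12, and every labelled DKO library lay below all others for this gene. Over all genes, 17.8% were called by this test.

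In the limb and axial list the difference was -1.85 for Pitx1 (edgeR adjusted p = 0.0207), -1.7 for Pax9 (edgeR adjusted p = 0.0229) and -0.57 for Foxc2 (edgeR adjusted p = 0.0105). In the head list it was -1.87 for Six2 (edgeR adjusted p = 0.0349). Among Polycomb genes it was -0.45 for Phc2 (edgeR adjusted p = 0.00257), 0.35 for Mtf2 (edgeR adjusted p = 0.00581) and 0.26 for Rnf2 (edgeR adjusted p = 0.011). Among Trithorax and MLL genes it was -0.3 for Dot1l (edgeR adjusted p = 0.0166), -0.3 for Kmt2b (edgeR adjusted p = 0.0206) and -0.22 for Mllt1 (edgeR adjusted p = 0.0471). It was 0.24 for Hibadh, a neighbour of HoxA (edgeR adjusted p = 0.0385). The calls differed in how well they held over 16 alternative values each. All 16 kept the call for Phc2, Mtf2, Rnf2, Dot1l and Foxc2. It held in 14 for Pitx1, 13 for Kmt2b and 12 for Pax9. For Six2 and Hibadh it held in 6, and for Mllt1 and Hoxc5 in 5. All of these differences rest on the Gadd45a label, which the Gadd45a counts do not check.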

How the results depend on the processing

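Across 22 calls of single Hox genes and 247 alternative values, none changed direction. In 169 the call held and in 78 it was lost, and 5 calls held throughout: Hoxa5, Hoxa6 and Hoxd8 in Ing1 KO against the WT, and Hoxb8 and Hoxd8 in the labelled DKO against the WT. For named list genes 855 of 1033 alternative values kept the call and 0 changed direction.

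The number of Hox genes called was less stable. In Ing1 KO against the WT it was 8, 11 with DESeq2, 5 with those groups alone and 4 to 10 when leaving out 1 library. In the labelled DKO against the WT it was 5, 3 with the replicate block, 8 with those groups alone and 2 to 9 when leaving out 1 library. Against Ing1 KO it was 5, 8 with DESeq2, 2 with those groups alone and 0 to 12 when leaving out 1 library. Against the labelled Gadd45a KO it was 3, and 0 to 3 when leaving out 1 library. For the interaction it was 1, 3 without the filter, 5 with DESeq2, 0 with the replicate block and 0 to 9 when leaving out 1 library.

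Over all genes, leaving out 1 library gave 1858 to 3548 calls in Ing1 KO against the WT (3543 with all), 2249 to 3676 in the labelled DKO against Ing1 KO (3740) and 1300 to 3285 for the interaction (2687). For the labelled Gadd45a KO it gave 1 to 13 against 1 with all, DESeq2 gave 31 and the compared groups alone gave 0 (1331 genes had an unadjusted p under 0.05).

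Replicate numbers gave no clear pairing of the libraries. The 18 same-number pairs correlated at -0.22 to 0.41 (median 0.01) and the 36 others at -0.33 to 0.22. Of 12 libraries, 5 correlated best with their own number. The highest value, 0.41, was that of WT replicate 1 with Gadd45a KO replicate 1. Whether some libraries shared a batch was not tested. The block also ended the calls of Hoxb7 and Hoxd9 in the labelled DKO against the WT (0.31 and -0.81), of Hoxa7 against Ing1 KO (-0.55), of Hoxb8 against the labelled Gadd45a KO (0.42) and of Hoxc5 in the interaction (-0.55). The causes of these changes were not tested. Depth limits Hoxb1, Hoxb13 and Hoxd12, and to a lesser degree the other genes under 1 CPM.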
